A study of Mus musculus with 20 samples.

Results

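The genes described here encode the proteins of the cytosolic ribosome. They were chosen by name, as the protein-coding genes whose symbols follow the mouse nomenclature for ribosomal proteins of the large subunit (Rpl, with the stalk genes Rplp0, Rplp1 and Rplp2) and of the small subunit (Rps, with Rpsa), without the ribosomal protein S6 kinases and without pseudogenes. The naming rule itself uses no measured value, but the gene family was taken up with earlier results of these data known. It gave 83 of the 25190 genes of the count table, 51 of the large and 32 of the small subunit.

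The cytosolic ribosome translates nuclear messenger RNA. Its small subunit reads the codon and its large subunit joins the amino acids, and each subunit is built in the nucleolus from ribosomal RNA and from proteins that are made in nearly equal numbers. Most of these messenger RNAs are short and abundant and begin with a run of pyrimidines, the 5′ terminal oligopyrimidine tract, through which growth signals (the mTOR pathway) control their translation together. In neurons they are also found in dendrites and axons, where proteins are made close to synapses.

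The study asked what small RNAs (sRNAs) from the hippocampus of people with schizophrenia do when they are placed in the mouse hippocampus. All mice were wild-type C57BL/6JOlaHsd males aged 4 months that carried bilateral cannulas in CA1, a field of the hippocampus, and received repeated infusions. The infused liquid was artificial cerebrospinal fluid in Vehicle mice, a pool of sRNAs from unaffected people in Control mice, and sRNAs of separate sets of patients in Pool 1 and Pool 2 mice. Hippocampal tissue was taken 24 hours after the last behavioural test and poly(A) RNA was sequenced in 5 libraries per group. The tissue is named here as in the labels, whereas the design text of the series says CA1 tissue. Each human pool was a single preparation, so a difference between groups of mice cannot be told apart from a difference between these preparations in anything other than the diagnosis. The labels number the libraries within a group without stating that each came from its own mouse, so the p-values measure the spread between libraries.

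The libraries held 20588280 to 25543939 counts. The markers of hippocampal tissue were present in every library: the 6 neuronal markers summed to 9350 to 12900 CPM (counts relative to the size of the library, scaled by the trimmed mean of M values) and the 6 markers of CA1 pyramidal neurons to 481 to 1280 CPM. Pool 2 replicate 1 stood apart, with 1410 CPM on 10 microglial markers against 420 to 680 CPM in the other libraries and 7590 CPM on 8 astrocyte markers against 4730 to 6200 CPM. Vehicle replicate 4 held 8960 CPM on 6 choroid plexus markers, where the next highest library, Control replicate 3, held 2290. Pool 2 replicate 4 held 474 CPM on thalamus markers, against 83.2 to 266 CPM in the other libraries, and 129 CPM on markers of meninges and fibroblasts, against 27 to 75.9 CPM. In bulk tissue, fewer cells of a type and less RNA per cell cannot be told apart.

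The start sites of some members described below are shown because a run of C and T at the start is the sequence feature known for this gene family. They were picked after the runs were seen, 6 with long runs and 3 with short ones (Rpl36a, Rps13 and Rpl11). RefSeq promoter sequences of build GRCm38.p6 were given for 63 of the 83 genes. For a gene with several annotated starts, the start with the longest run was kept. The other letters searched below were counted if any start of the gene had them. Genes with more starts thus had more chances of a long run or a match. Each window runs from 30 bases before the annotated start to 20 bases into the transcript on the strand of the gene, written 5′ to 3′, and capitals mark the longest unbroken run of C and T that touches the 11 bases centred on the start.
Rpl35 (chr2:39005112-39005161, minus strand): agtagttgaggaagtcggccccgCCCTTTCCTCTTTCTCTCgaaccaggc
Rpl38 (chr11:114668550-114668599, plus strand): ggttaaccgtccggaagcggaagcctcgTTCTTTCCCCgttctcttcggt
Rps26 (chr10:128626487-128626536, minus strand): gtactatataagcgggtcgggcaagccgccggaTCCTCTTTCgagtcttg
Rps15a (chr7:118116128-118116177, minus strand): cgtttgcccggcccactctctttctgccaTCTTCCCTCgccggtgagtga
Rpl15 (chr14:18270967-18271016, minus strand): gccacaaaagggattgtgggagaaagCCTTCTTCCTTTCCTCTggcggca
Rpl34 (chr3:130730318-130730367, minus strand): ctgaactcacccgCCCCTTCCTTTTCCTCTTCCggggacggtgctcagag
Rpl36a (chrX:134585624-134585673, plus strand): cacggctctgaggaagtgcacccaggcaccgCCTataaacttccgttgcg
Rps13 (chr7:116334171-116334220, minus strand): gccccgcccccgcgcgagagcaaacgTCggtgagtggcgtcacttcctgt
Rpl11 (chr4:136053374-136053423, minus strand): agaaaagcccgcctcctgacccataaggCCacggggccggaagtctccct

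In these windows the run was 18 bases long at Rpl35, 10 at Rpl38, 9 at Rps26 and Rps15a, 17 at Rpl15 and 20 at Rpl34. It was 3 bases at Rpl36a and 2 at Rps13 and Rpl11. Of the genes shown, Rps15a, Rpl15 and Rpl34 have long runs and passed the threshold in no comparison. Among members not shown that passed it in a comparison, the run was 6 at Rpl6, 5 at Rps7, 2 at Rps12 and 3 at Rpl41. A long run and a call thus did not always go together. Over the 63 genes the median run was 6 bases, against 4 in the 27025 genes of the promoter table, and 24 members (38.1%) had a run of at least 8 bases, against 11.4% of all genes. The letters CCGGAAG, searched on both strands from 250 bases before to 50 bases after the start, were in 26 members (41.3%) and in 9.93% of all genes, and GGGCGG was in 61.9% of the members and 38.2% of all genes. AAGATGG was in 15.9% and 7.28%. TATAAA was in a smaller share of the members, 11.1%, than of all genes, 15.7%. A match describes these letters in these windows and is not a measured site.

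Levels were compared within the Vehicle mice, as mean CPM per kilobase of merged exon. The stalk gene Rplp1, whose acidic protein helps to recruit translation factors to the large subunit, was highest at 532 ± 45.4 CPM per kb (SD, n = 5), followed by Rps15, a protein of the head of the small subunit, at 291 ± 28 and Rpl4, a large protein that lines the exit tunnel, at 241 ± 34.4. Rpl8 stood at 167 ± 10.4, Rps21 at 156 ± 26.3 and Rpl36 at 155 ± 12.7 CPM per kb, which are neighbours in the order whose values lay within their spread. Rpl38 and Rpl41, at 130 ± 14.7 and 130 ± 6.9, and Rps3a1, at 116 ± 24.6, were also among the 10 highest. The order depends on the length used: with the longest protein-coding transcript 7 of the 10 stayed among the 10 highest, and with the principal transcript, an alternative added after the data were seen, 6 did, with Rplp1 first under each length.

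The deposited levels of 6 genes lay far below the rest, although the canonical ribosomal proteins among them are needed in near equal numbers. Rpl13a had 3.89 ± 1.11 CPM per kb, Rps10 0.917 ± 0.199, Rpl24 0.349 ± 0.138, Rpl3l 0.158 ± 0.0645, Rpl36al 0.11 ± 0.0589 and Rpl39l 0.0964 ± 0.0953, whereas the next gene in the order, Rpl7l1, had 11 ± 0.835. The other members of the 10 lowest were Rps28 at 11.3 ± 2.42, Rps27l at 13.5 ± 2.63 and Rpl39 at 15.9 ± 3.12 CPM per kb. Rpl3l and Rpl39l are paralogues known from muscle and from testis, and Rpl36al is a paralogue of Rpl36a. Rpl13a, Rps10 and Rpl24 are canonical ribosomal proteins.

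Sequence shared with other genes was measured beside the levels. The counting option that the authors name, GeneCounts of STAR, keeps reads that map to a single place, and ribosomal protein genes have many processed copies in the genome. Of all 50-base stretches of the principal transcript, the length of the reads, a median of 57.4% over the 83 members occurred in the transcripts of at least 1 other gene, against 2.58% over 77 mitochondrial ribosomal protein genes. The share was 98.6% for Rps27, 95.1% for Rpl35, 93.8% for Rpl5, 92.4% for Rps10, 81.7% for Rpl24 and 57.4% for Rpl13a, and it was 0 for Rpl39l and Rpl3l. Part of the merged exons lay under another gene on the same strand, 47% for Rpl24, 35.4% for Rpl13a, 24.5% for Rpl36al and 20.6% for Rps10. These overlapping genes were among the other genes searched for shared stretches. The shares of exon and of stretches can therefore cover the same sequence and do not add up. Rps27, with the high share given above, had a level of 84 ± 9.13 CPM per kb. Rpl35 had 36.5 ± 4.84 CPM per kb, but 66.2% of its merged exons lay under a gene on the other strand. Shared stretches were searched on both strands, so the share of Rpl35 can include stretches of a gene at the same place. Such stretches need not map to several places. The part of unassigned reads in the low values was not tested, and the values of these genes are uncertain as levels.

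**Figure D1:**
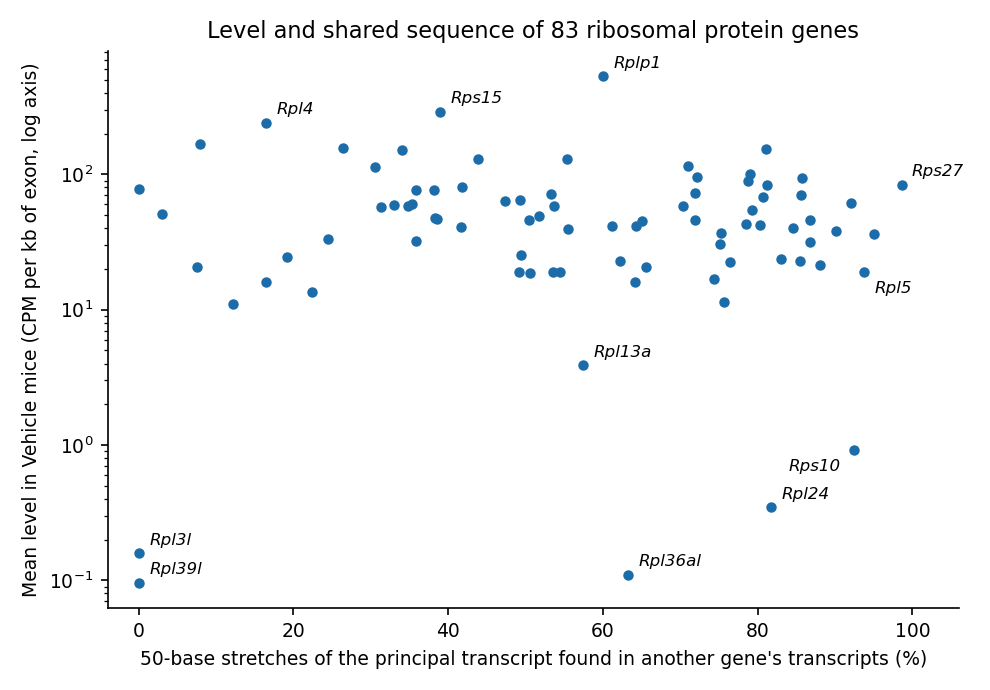
Each point is 1 of the 83 genes, with the percentage of 50-base stretches of its principal transcript that occur in transcripts of another gene on the horizontal axis and its mean level in 5 Vehicle libraries, in CPM per kilobase of merged exon on a log axis, on the vertical axis. Rplp1 at 532 CPM per kb is highest, and Rpl13a, Rps10, Rpl24, Rpl3l, Rpl36al and Rpl39l lie below 4 CPM per kb at shares from 0 to 92.4%.

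The ribosomal protein genes differed between libraries mainly as a block. All 83 genes together took 0.829 ± 0.117% of the counts in Vehicle, 0.978 ± 0.176% in Control, 0.82 ± 0.114% in Pool 1 and 0.955 ± 0.174% in Pool 2 mice (SD, n = 5 each). The Control libraries held 1.19, 1.12, 0.861, 0.768 and 0.951% in the order of their replicate numbers. The Pool 1 libraries held 0.759, 0.727, 0.775, 0.823 and 1.01%, so the groups overlapped and Pool 1 replicate 5 was above 3 of the 5 Control libraries. The Pool 2 libraries held 1.22, 0.747, 1, 0.903 and 0.902%, and the Vehicle libraries 0.783, 0.728, 0.84, 0.769 and 1.03%. The highest library of all was Pool 2 replicate 1, which also stood apart in its microglial and astrocyte markers, and the lowest was Pool 1 replicate 2. Counting error is small beside these differences, with 95% Wilson intervals of 1.22 to 1.23% and of 0.723 to 0.73% in these libraries (the intervals cover counting error only, and PCR copies are not independent molecules).

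**Figure D2:**
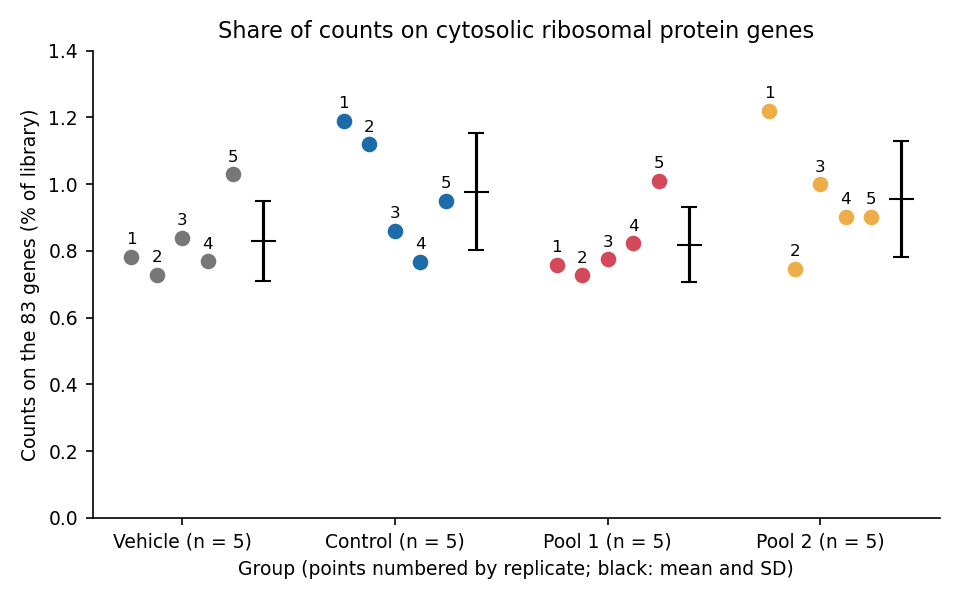
Points are libraries, numbered by replicate within their group, and the vertical axis gives the percentage of all counts that fell on the 83 genes; black marks are the group mean and SD (n = 5). The 4 groups overlap, between 0.727% in Pool 1 replicate 2 and 1.22% in Pool 2 replicate 1.

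With the group means removed, 77 members with a mean of at least 10 CPM rose and fell with each other over the 20 libraries. The median Pearson correlation between pairs of members was 0.875, the lowest was 0.212 and 100% were positive, and a single principal component held 86% of their variance, against 3.12% in the next. The same median over 9944 other protein-coding genes at that level was 0.00391. The correlations describe points that share a library, its depth and its scaling, and no test was made of them. Within Control, replicates 1 and 2 had 79 and 81 of the 83 members above their own group mean, and replicates 3, 4 and 5 had 6, 3 and 25. Within Pool 2, replicates 1 and 3 had 80 and 77 members above the mean, and replicates 2, 4 and 5 had 3, 13 and 15. In Vehicle and in Pool 1 replicate 5 had the most, with 80 in each, and the fewest were 6 in Vehicle replicates 1 and 2 and 6 in Pool 1 replicate 2.

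The spread within groups was wider for these genes than for others. The median coefficient of variation over the 77 members was 14% in Vehicle, 19.2% in Control, 13% in Pool 1 and 19.8% in Pool 2 mice, against 9.82, 11.9, 11.1 and 9.59% over the 9944 other genes. A few members followed the block less closely, again with the group means removed. Rps15a, a protein of the small subunit, had a correlation of 0.52 with the mean of the other members, Rpl5, which carries ribosomal RNA into the large subunit together with Rpl11, 0.67, and Rps29, a zinc-binding protein of the small subunit, 0.71. Rps29 was at 87.6 CPM in Vehicle replicate 3 and at 39.5 to 55.9 CPM in the other Vehicle libraries (the member was singled out after its values were seen).

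**Figure D3:**
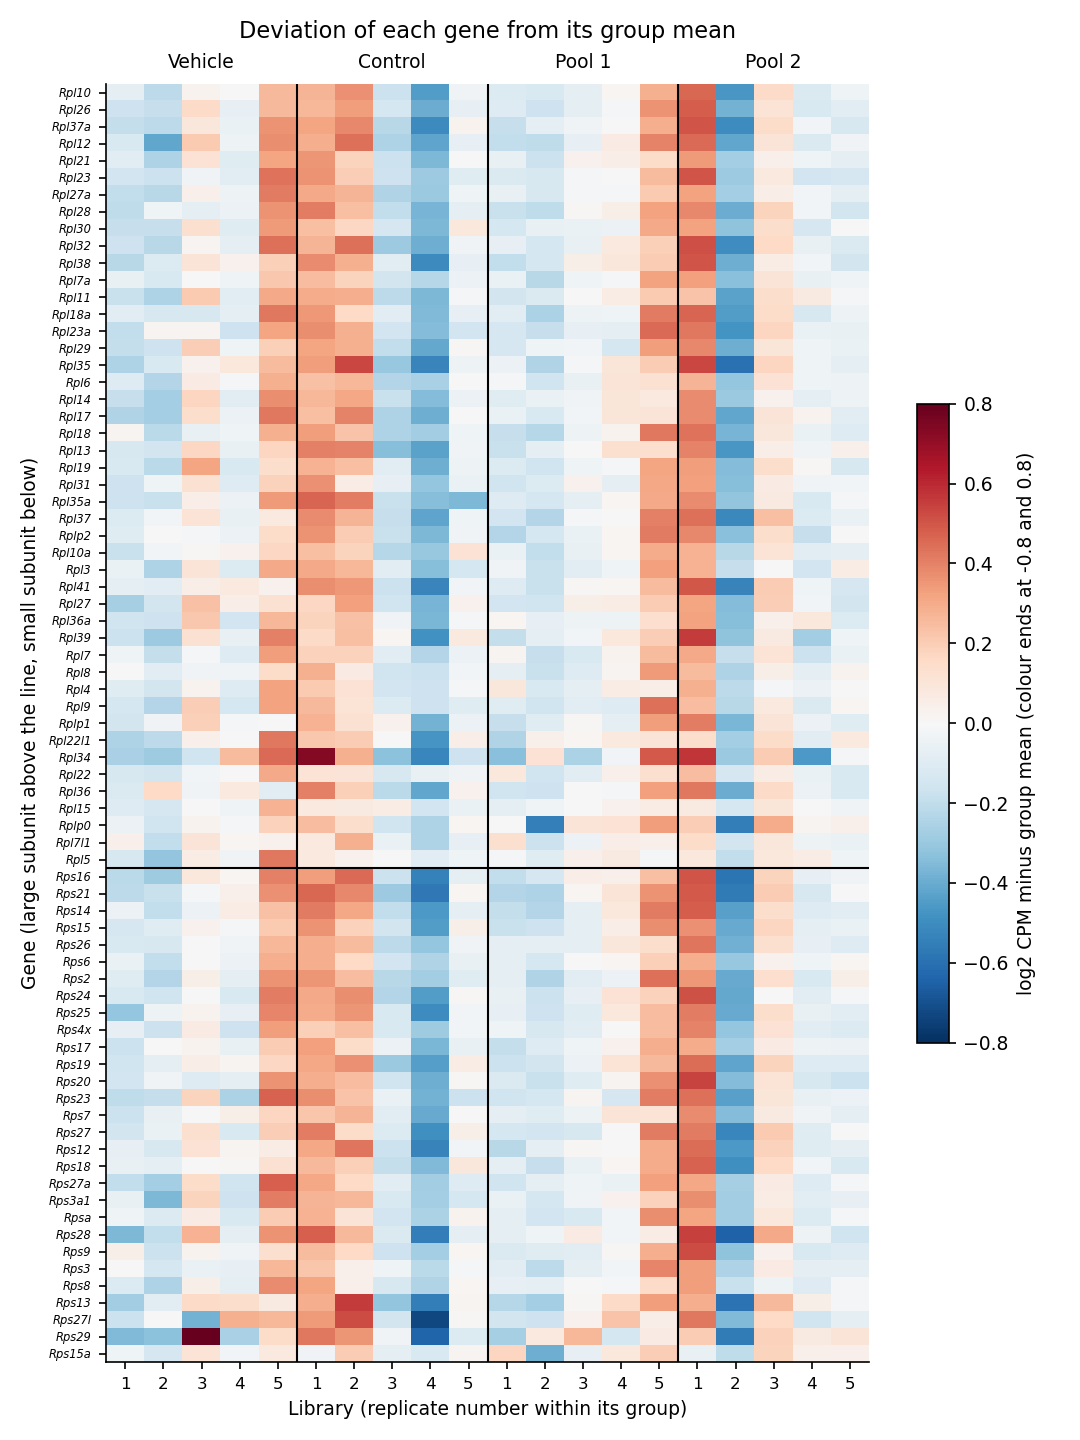
Rows are 75 of the 77 members with a mean of at least 10 CPM and columns are the 20 libraries; colour gives log2 CPM minus the mean of the library's group, red above and blue below. Many columns are nearly uniform in colour, red in Control replicates 1 and 2, Pool 2 replicates 1 and 3 and replicate 5 of Vehicle and Pool 1, and blue in Control replicates 3 and 4, Vehicle replicates 1 and 2, Pool 1 replicate 2 and Pool 2 replicate 2, the blue being deepest in Control replicate 4 and Pool 2 replicate 2.

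Genes outside the members were ranked by how their log2 CPM followed the mean of the members over the 20 libraries. The group means were removed first, so differences between groups do not enter. The 5 most alike were led by Eef1b2, a subunit of the factor that recharges elongation factor 1 (Pearson r = 0.963). The others were Cox7a2l, which joins respiratory chain complexes (0.961), Pfdn5, a subunit of the prefoldin chaperone (0.959), Vti1b, a SNARE protein (0.948), and Mt3, the brain metallothionein (0.947). Only Eef1b2 encodes a part of the translation machinery.

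The length of the transcript moved with the same libraries. The mean log2 CPM of 304 other protein-coding genes with transcripts under 1000 bases, taken as the difference from their mean over all libraries, was 0.42 in Control replicate 1 and 0.33 in Control replicate 2, where the members stood at 0.41 and 0.36. In Control replicate 4 these short transcripts stood at -0.23 and the members at -0.21, and in Pool 2 replicate 2 at -0.25 and -0.27. Pool 2 replicate 1 was the exception, with 0.42 for the members and 0.19 for the other short transcripts. Transcripts of at least 5000 bases, 2640 genes, went the other way in these libraries, at -0.25 in Control replicate 1 and 0.12 in Control replicate 4.

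**Figure D4:**
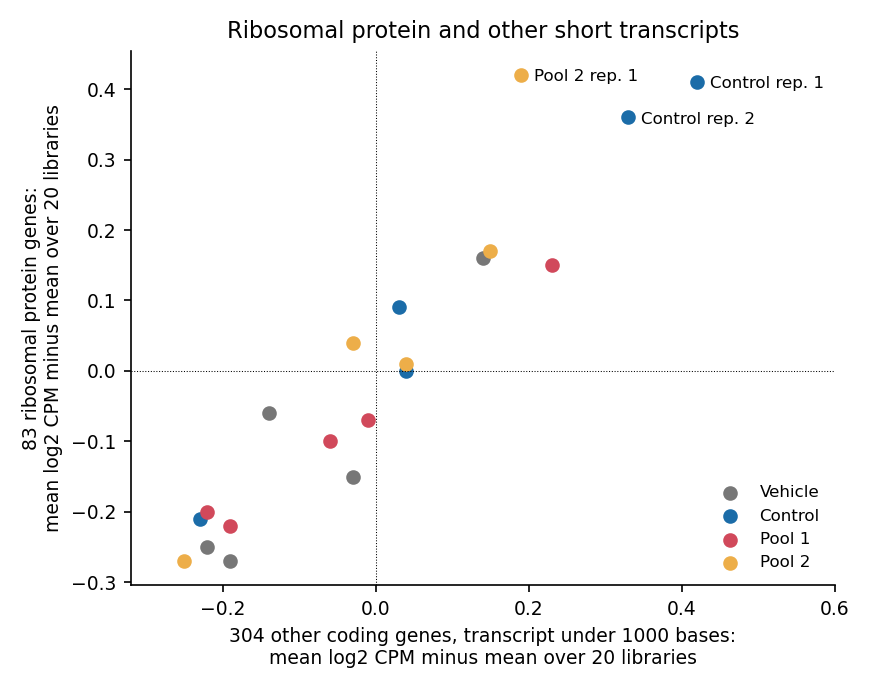
Each point is a library, coloured by group; the horizontal axis gives the mean log2 CPM of 304 other protein-coding genes with transcripts under 1000 bases and the vertical axis that of the 83 ribosomal protein genes, each minus its mean over 20 libraries. Libraries high in 1 set are high in the other, and Pool 2 replicate 1 lies above the others, at 0.42 for the members and 0.19 for the short transcripts.

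The question of whether sRNAs from patients changed these genes was addressed first by Pool 1 against Control. Nearly all members had log2 fold changes below 0, with a median of -0.24 and quartiles of -0.30 and -0.19, where the median over all genes was -0.01, and 2 of the 83 (2.41%) were above 0, as were 48.9% of all genes. The study's threshold asks for a log2 fold change of 0.3 or more in size together with an unadjusted p under 0.05, and 10 members passed it as lower (12% of the members, where 1.99% of all genes passed as lower). Of these 8 were of the large subunit (Rpl11, Rpl17, Rpl19, Rpl32, Rpl35, Rpl36a, Rpl38 and Rpl41) and 2 of the small (Rps24 and Rps26). Only Rpl39l passed as higher (1.2%, against 1.48% of all genes). No member had an adjusted p under 0.05 by edgeR's quasi-likelihood test with Benjamini-Hochberg adjustment (smallest 0.917) or by DESeq2 (smallest 0.604), and at an unadjusted p under 0.05 edgeR gave 15 lower (18.1%, against 2.86% of all genes) and 1 higher (against 2.35%).

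Rpl36a, a zinc-binding protein near the site that empty transfer RNAs leave, had the smallest p of the members called lower. It was at 49.5, 51.5, 43, 34 and 43.3 CPM in Control and at 35, 33.1, 33.7, 33.7 and 38 CPM in Pool 1 libraries. The groups overlapped only through Control replicate 4, and the log2 fold change was -0.35 (SE 0.12, edgeR's quasi-likelihood test, unadjusted p = 0.0077, adjusted p = 0.917).

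Rps26, which contacts messenger RNA upstream of the codon and is among the genes mutated in Diamond-Blackfan anaemia, was at 110, 107, 77.6, 72.2 and 87.9 CPM in Control and at 67, 67, 67, 75.3 and 78 CPM in Pool 1 libraries. Pool 1 replicates 4 and 5 were inside the Control range, with a log2 fold change of -0.36 (SE 0.13). Rpl11, which with Rpl5 binds the p53 regulator Mdm2 when ribosome assembly fails, was at 90.2, 89.7, 63.5, 57.2 and 72.7 CPM in Control and at 52.8, 54.2, 58.4, 61 and 67.6 CPM in Pool 1 mice. The log2 fold change was -0.34 (SE 0.137), and the Control values spanned all but the lowest 2 Pool 1 libraries.

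Rpl38, known for its role in the translation of Hox messenger RNAs, changed by -0.38 (SE 0.153) on the log2 scale. Its Control libraries held 116, 109, 83.9, 62.8 and 85.4 CPM and its Pool 1 libraries 60.7, 63.3, 71.8, 74 and 80.1 CPM, so 4 of the 5 Pool 1 values lay above the lowest Control value. Rpl17, at the rim of the exit tunnel, changed by -0.35 (SE 0.153), from 177, 198, 126, 115 and 150 CPM to 116, 110, 118, 128 and 129 CPM. In each of these genes Control replicates 1 and 2 were the highest of the 10 libraries.

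Rps15a had the smallest p of all members, 0.00672, and missed the fold threshold with a log2 fold change of -0.29 (SE 0.0988). A single member had groups that did not overlap, lower in Pool 1, as did 0.349% of all genes in that direction and 0.512% in the other. It was Rpl5, which, named here for that reason after its values were seen, was at 79.8, 77.6, 76, 71.4 and 73.8 CPM in Control and at 65.4, 61.4, 67.7, 69.2 and 65.4 CPM in Pool 1 libraries (log2 fold change -0.20, SE 0.0982, unadjusted p = 0.0503 by edgeR's quasi-likelihood test). Rpl39l, the member called higher, had 2, 0, 0, 2 and 0 counts in Control and 0, 2, 10, 2 and 4 counts in Pool 1 libraries. These counts carry no level, and the study itself left out genes with a mean normalized count under 10, a filter under which 80 members stayed and none was called higher.

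The calls in this comparison rested on single libraries. Without Control replicate 4 there were 42 members lower past the threshold (50.6%, against 3.05% of all genes in that fit), and without Control replicate 2 there were 0 (against 1.6%). There were 37 without Pool 1 replicate 5 (against 2.66%) and 2 without Control replicate 1 (against 1.58%). The medians over the members ran from -0.33 (without Control replicate 4) to -0.16 (without Control replicate 1). The other short transcripts had a median log2 fold change of -0.17, with 12 of 304 above 0, and after a correction of each library for GC content and transcript length 1 member was called lower, Rpl38 (against 1.25% of all genes), and the median over the members was -0.12. The list of RNAs without a poly(A) tail or with ribosomal RNA-like reads, of which 4 of 6 were measured, summed to 1720 to 13800 CPM in Pool 1 and to 558 to 1820 CPM in Control libraries, and to 647 to 5030 and 3390 to 9410 CPM in Vehicle and Pool 2. Its part in the members' values was not tested.

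Pool 2 against Control addressed the same question with the other set of patients and the same Control mice. No member passed the threshold in either direction, where 5.2% of all genes passed as higher and 1.01% as lower, and none had an unadjusted p under 0.05 by edgeR, where 5.76% of all genes had one as higher and 1.94% as lower. No member's groups failed to overlap, as did 0.77% of all genes as higher and 0.282% as lower. DESeq2 also gave 0 members with an adjusted p under 0.05. The median log2 fold change over the members was -0.06 with quartiles of -0.10 and -0.02, and 12 of 83 (14.5%) were above 0, against 50.7% of all genes.

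The members with the smallest p-values among those above 0 were Rps10, Rpl39l and Rpl34. Rps10 had a log2 fold change of 0.21 (SE 0.163) on 52 to 80 counts per library. Rpl34 had 0.22 (SE 0.243), from 94.2, 69, 45, 39.4 and 50.6 CPM in Control to 99.8, 54.6, 77.2, 49 and 66.6 CPM in Pool 2 libraries, and the groups overlapped over most of their range. Rpl39l had 0 to 3 counts in each of these libraries.

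On the other side were Rpl15, Rps15a and Rpl7l1. Rpl15, part of the core of the large subunit, had a log2 fold change of -0.14 (SE 0.0793), from 104, 104, 103, 88.9 and 95.3 CPM to 94.5, 82.1, 96.1, 90 and 88.1 CPM. Rps15a had -0.14 (SE 0.0987) and Rpl7l1, a paralogue known from ribosome assembly, -0.12 (SE 0.0914). The direction of the median depended on single libraries, with -0.16 without Pool 2 replicate 1, 0.02 without Pool 2 replicate 2 and 0.01 without Control replicate 1 or 2. The other short transcripts had a median of -0.12 here, with 34 of 304 above 0, and so lay further below 0 than the members.

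In the direct comparison of Pool 2 with Pool 1, 80 of 83 members had log2 fold changes above 0 (96.4%, against 53.5% of all genes). The median was 0.18, with quartiles of 0.12 and 0.24. Past the threshold was 1 member, Rpl11 (1.2%, where 5.66% of all genes passed as higher), and none was lower (1.16% of all genes). At an unadjusted p under 0.05 there were 3 members higher by edgeR (3.61%, against 6.24% of all genes), Rpl11, Rpl6 and Rps9, and 0 lower (against 2.28%). No member had groups apart, where 0.977% of all genes did as higher and 0.433% as lower, and none had an adjusted p under 0.05 by edgeR (smallest 0.541) or DESeq2 (smallest 0.515). The shift was shared by most members and the share of calls was below that of all genes.

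Rpl11 was at 84.1, 53.3, 79.2, 75.3 and 71.2 CPM in Pool 2 libraries, against the Pool 1 values given above, which lay between 52.8 and 67.6 CPM. Its log2 fold change was 0.30 (SE 0.137, unadjusted p = 0.0365 by edgeR's quasi-likelihood test), with 4 of the 5 Pool 2 libraries above all Pool 1 libraries. With DESeq2, the tool of the study, it was 0.29 (unadjusted p = 0.049) and missed the fold threshold, and it also missed the threshold with DESeq2 size factors and with upper-quartile factors, with the GC content and length correction (0.19) and without Pool 2 replicate 1 (0.25). Rpl6, a large subunit protein, had 0.25 (SE 0.117) and Rps9, known for its part in the accuracy of decoding, 0.28 (SE 0.128). The members below 0 were Rpl39l, Rpl36al and Rpl24, each with at most 16 counts in any Pool 1 or Pool 2 library. Without Pool 2 replicate 2 there were 25 members higher past the threshold (30.1%, against 5.93% of all genes in that fit), without Pool 1 replicate 5 there were 12 (14.5%, against 6.49%), and without Pool 2 replicate 1, the library with high microglial markers, there were 0 (against 3.67%) and the median was 0.08. The other short transcripts had a median of 0.05, with 223 of 304 above 0, below the median of the members.

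The largest count of calls came where no patient material was involved. Control against Vehicle compared mice given sRNAs of unaffected people with mice given fluid alone, and 20 members passed the threshold as higher (24.1%, where 1.7% of all genes passed as higher) and 0 as lower (3.41% of all genes). Of these 14 were of the large and 6 of the small subunit. The median over the members was 0.25 with quartiles of 0.20 and 0.33, and 81 of 83 (97.6%) were above 0, against 46.8% of all genes. None had an adjusted p under 0.05 by edgeR (smallest 0.734) or DESeq2 (smallest 0.639), and 24 had an unadjusted p under 0.05 by edgeR, all higher (28.9%, against 2.86% of all genes as higher and 3.78% as lower). The groups overlapped in every member, where 0.206% of all genes did not overlap as higher and 0.401% as lower.

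Rpl6 was at 120, 109, 134, 127 and 156 CPM in Vehicle and at 188, 192, 136, 133 and 159 CPM in Control libraries, a log2 fold change of 0.32 (SE 0.118, unadjusted p = 0.0113 by edgeR's quasi-likelihood test). Rps7, which like Rpl11 binds Mdm2, was at 103, 112, 117, 120 and 131 CPM in Vehicle and at 167, 173, 134, 108 and 144 CPM in Control mice, with the same log2 fold change of 0.32 (SE 0.12). In both genes 1 or 2 Control libraries fell inside the Vehicle range and Control replicates 1 and 2 were far above it.

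Rps13, near the interface between the subunits, had the largest fold change among members called, 0.50 (SE 0.188), from 52.2, 59.4, 70.4, 69.7 and 66.5 CPM to 106, 128, 69.6, 58.9 and 87.8 CPM. Rps12, on the beak of the small subunit, rose by 0.41 (SE 0.16), from 73.9, 70.7, 83.7, 78.5 and 80.8 CPM to 124, 134, 88.6, 68.9 and 98.3 CPM. Rpl35, at the exit tunnel, rose by 0.48 (SE 0.19), from 37.8, 41.2, 46.1, 47.6 and 53.4 CPM to 76.9, 88.1, 49.4, 42.3 and 59.2 CPM. Control replicate 4 lay within the Vehicle range for Rps13 and Rpl35 and below it for Rps12. Below 0 were Rpl39l and, at 0.00 (SE 0.126), Rpl9.

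Again the calls rested on single libraries: 44 members were higher past the threshold without Control replicate 4 (53%, against 3.15% of all genes in that fit), 1 without Control replicate 1 (against 1.06%) and 0 without Control replicate 2 (against 1.03%), with medians from 0.17 to 0.33. The other short transcripts had a median log2 fold change of 0.24, with 294 of 304 above 0, and transcripts of at least 5000 bases had a median of -0.06. With the GC content and length correction 3 members were called (3.61%, against 1.03% of all genes), and their median was 0.16. The choroid plexus markers ranged from 206 to 8960 CPM in Vehicle and from 114 to 2290 CPM in Control, and without Vehicle replicate 4 and Pool 2 replicate 1 the median was 0.24.

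**Figure D5:**
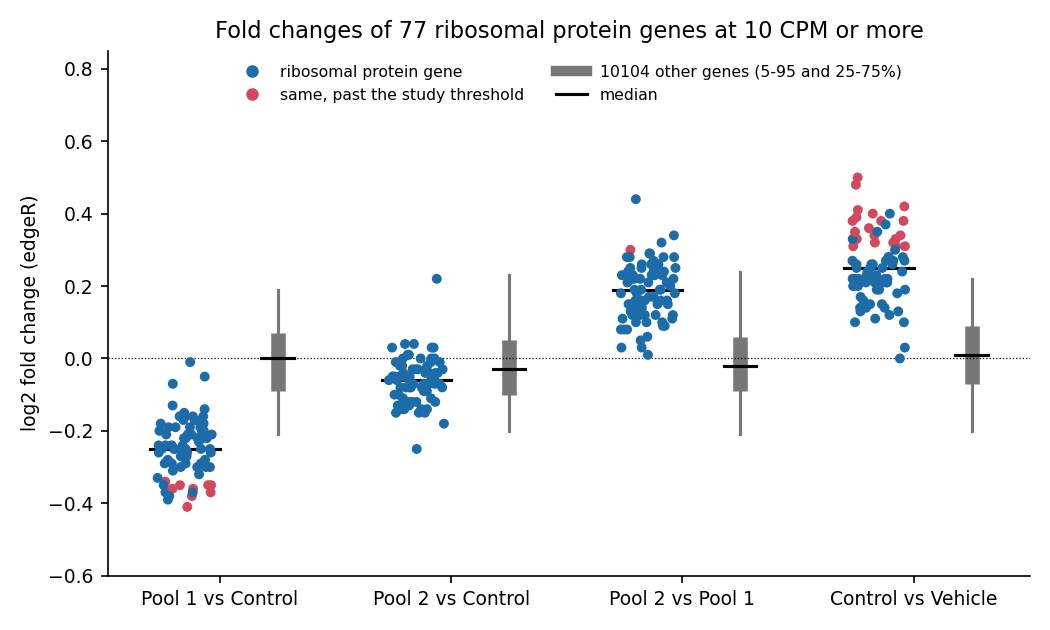
For each comparison, points are the log2 fold changes of the 77 members with a mean of at least 10 CPM, red where past the study's threshold, and grey bars give the 25th to 75th and the 5th to 95th percentile of 10104 other genes; black lines are medians. Members lie mostly below 0 in Pool 1 against Control, near 0 in Pool 2 against Control, and mostly above 0 in Pool 2 against Pool 1 and in Control against Vehicle.

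These comparisons share mice, since Control enters 3 of them and Pool 1 and Pool 2 enter 2 each. A Control group that is high or low moves all 3 of its comparisons, and the medians of -0.24 and 0.25 against Pool 1 and Vehicle are therefore not separate results.

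By subunit the medians had the same direction in each comparison, and the difference between the subunits was not tested. Lower in Pool 1 than Control past the threshold were 15.7% of the large and 6.25% of the small subunit genes (1.99% of all genes). Higher in Control than Vehicle were 27.5% and 18.8% (1.7% of all genes). The median log2 fold changes of the large and the small subunit were -0.23 and -0.25 in Pool 1 against Control, -0.06 in both in Pool 2 against Control, 0.16 and 0.22 in Pool 2 against Pool 1 and 0.25 in both in Control against Vehicle. None of the stalk genes Rplp0, Rplp1 and Rplp2 was called in any comparison. Rplp1 had -0.20, -0.12, 0.08 and 0.26 (SE 0.128) in the order of the comparisons above, Rplp0 -0.24, -0.14, 0.10 and 0.21 (SE 0.146), and Rplp2 -0.16, -0.04, 0.12 and 0.28 (SE 0.139). Rplp0 was low in Pool 1 replicate 2 and Pool 2 replicate 2, at 87.4 and 93.4 CPM against 119 to 182 CPM in the other 18 libraries. Rpsa, which doubles as a laminin receptor at the cell surface, had -0.17, -0.04, 0.13 and 0.19 (SE 0.118).

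Of the 6 paralogues that the table holds, 3 had more than 10 counts in every library. Rpl7l1 ran from 33.6 to 41.3 CPM in Vehicle beside 168 to 242 CPM for Rpl7, Rpl22l1 from 33.8 to 53.7 CPM beside 86.7 to 119 CPM for Rpl22, and Rps27l, a target of p53, from 8.32 to 13.2 CPM beside 78.6 to 100 CPM for Rps27. Rpl22l1 and Rpl22 had log2 fold changes of -0.25 and -0.19 in Pool 1 against Control and 0.21 and 0.14 in Control against Vehicle. Rpl7l1 had an unadjusted p of 0.00984 in Control against Vehicle, the smallest of all members there by edgeR's quasi-likelihood test, and with 0.26 (SE 0.0916) missed the fold threshold. Rpl3l and Rpl36al had at most 13 and 16 counts in any library, whereas their partners Rpl3 and Rpl36a stood at 186 to 272 and 33.4 to 45.2 CPM in Vehicle mice, and Rpl39, the partner of Rpl39l, at 18.3 to 29.6 CPM.

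Related genes were read from the same fits by lists. Among 77 mitochondrial ribosomal protein genes, which serve the separate ribosome of mitochondria, 12 were higher (15.6%, against 1.7% of all genes) and 0 lower (against 3.41%) past the threshold in Control against Vehicle, at a median of 0.20. In Pool 1 against Control 0 were higher and 2 lower (2.6%, near the 1.99% of all genes), at a median of -0.12. In Pool 2 against Control 0 were higher and 1 lower (1.3%, against 1.01%), at a median of -0.13, and none was called in Pool 2 against Pool 1, at 0.01. Of 20 translation factors and companions with messenger RNAs of the same pyrimidine class, Tpt1, a growth-linked protein, was called in 3 comparisons, and no other was called. It had -0.42 in Pool 1 against Control, 0.38 in Pool 2 against Pool 1 and 0.38 in Control against Vehicle (SE 0.15 each). The call is 5% of the list in each, against 1.99% of all genes as lower and 5.66% and 1.7% as higher. Without Control replicate 2 Tpt1 missed the threshold in Pool 1 against Control (-0.27) and in Control against Vehicle (0.23). Without Pool 2 replicate 1 it did so in Pool 2 against Pool 1 (0.26). The medians over the 20 were -0.15 in Pool 1 and -0.05 in Pool 2 against Control, 0.10 in Pool 2 against Pool 1 and 0.14 in Control against Vehicle.

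Genes for the making of ribosomes were read in the same way. The 30 assembly and nucleolar genes had medians of -0.04, -0.07, -0.02 and 0.07 in Pool 1 against Control, Pool 2 against Control, Pool 2 against Pool 1 and Control against Vehicle. Past the threshold in Pool 1 against Control were Nop10 (-0.32) and Rpf2 (-0.33) as lower (6.67% of the list, against 1.99% of all genes). In Control against Vehicle they were Nop10 (0.38) and Nhp2 (0.37) as higher (6.67%, against 1.7%). None of these calls held without Control replicate 2, where they were -0.21, -0.27, 0.27 and 0.27. The 12 genes for the transcription of ribosomal DNA had medians of -0.07, -0.04, 0.00 and 0.02, with 1 call, Myc, higher in Pool 2 than in Pool 1 by 0.41 (SE 0.149). That call is 8.33% of the list, where 5.66% of all genes passed as higher. Of 15 genes of growth signalling upstream of translation, Rps6ka1 was called higher in Pool 2 against both Control and Pool 1, with 0.45 and 0.41 (SE 0.188), and none was called in the other comparisons. This is 6.67% of the list, near the 5.2% and 5.66% of all genes that passed as higher. Without Pool 2 replicate 1, the library with 1410 CPM on the microglial markers, Rps6ka1 had 0.19 and 0.14 and passed neither threshold. The microglial markers averaged 724 ± 393 CPM in Pool 2 (SD, median 569), 509 ± 84.8 CPM in Control (median 516) and 470 ± 37.6 CPM in Pool 1 (median 468). Their part in the Rps6ka1 values was not tested.

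Among ribosomal proteins under other names, Rpl37rt, a retrotransposed copy of Rpl37, had -0.67 (SE 0.176, unadjusted p = 0.000816 and adjusted p = 0.917 by edgeR's quasi-likelihood test) in Pool 1 against Control, -0.37 in Pool 2 against Control and 0.47 in Control against Vehicle, at a mean of 6.94 CPM. Rps27rt had -0.68 (SE 0.319) in Pool 1 against Control, with the same adjusted p. As copies of Rpl37 and Rps27 they can share reads with them, and their values are uncertain. The 134 named ribosomal protein pseudogenes took 0.00443 to 0.0106% of the counts per library. In Pool 1 against Control 1 was higher and 20 were lower past the threshold (14.9%, against 1.99% of all genes), at a median log2 fold change of -0.58, and in Control against Vehicle 15 were higher (11.2%, against 1.7%) and 0 lower, at 0.43. In Pool 2 against Control 4 were higher (2.99%, below the 5.2% of all genes) and 6 lower (4.48%, against 1.01%), at -0.29, and in Pool 2 against Pool 1 5 were higher (3.73%, below the 5.66% of all genes) and 2 lower (1.49%, against 1.16%), at 0.34. The 134 pseudogenes together held few counts. Their log2 fold changes ran from -3.62 to 6.53 in Pool 1 against Control and from -1.34 to 2.85 in Control against Vehicle. Their medians are therefore not comparable in size with those of the members. As near copies they can also share reads with the members, and these values are uncertain too.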

How the data were processed

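Poly(A) RNA of hippocampal tissue from 4 groups of mice was sequenced in stranded libraries. Per the labels, each sample was sequenced in 2 rounds, read quality was checked with FastQC 0.11.5 and reads were aligned with STAR. Per the methods, reads per gene of GENCODE M20 (GRCm38) were counted with the GeneCounts option of STAR, and genes with fewer than 10 counts in all were left out. That option counts reads that map to a single place. The deposited values are raw counts, used as deposited.

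A single model of 4 groups was fitted to 25190 genes in 20 libraries with edgeR 4.0.16 (trimmed mean of M values, robust quasi-likelihood, Benjamini-Hochberg over all genes; R 4.3.3). The study used DESeq2; here DESeq2 1.42.0 was an alternative. CPM use edgeR's effective library sizes, and log2 CPM a prior count of 2. Scripts were tested on simulated data. Libraries of a group were no repeats of each other (chi-square per degree of freedom 8.23 to 66.8). Named genes were, in each comparison, up to 5 members past the threshold in each direction by p, otherwise the 3 with the smallest p, with the 10 highest and lowest per length, the paralogues with their partners, the stalk genes and Rpsa; the values of 2 members are not reported here. Members and lists were chosen with earlier results of these data known. Gene lengths, overlaps and shared 50-base stretches came from GENCODE M21, which covered 99.8% of genes, and promoters from RefSeq. Other settings tried were other scalings, filters, designs and libraries left out.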

Additional observations from a re-analysis of the deposited data

Results flagged for a closer look

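Single libraries stood apart from the other 4 of their group in 7 of 148 group and member combinations (highest or lowest value, Dixon's test at the 95% level, which chance alone flags in about 1 of 20 groups, so the number of flags is near what chance gives). In Vehicle replicate 5, Rpl15 was at 109 and Rpl22 at 119 CPM, each the highest of its group. In Pool 1 replicate 5, Rpl9 was at 186, Rpl3 at 285, Rps27 at 109 and Rpsa at 240 CPM, again the highest. Rpl22l1 was lowest in Pool 1 replicate 1, at 33.3 CPM. The flags fall mostly on the libraries in which nearly all members were high, and they are therefore not independent of each other.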

How the results depend on the processing

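Without single libraries, the median log2 fold change over the members ran from -0.33 to -0.16 in Pool 1 against Control, from -0.16 to 0.02 in Pool 2 against Control, where its sign turned, from 0.08 to 0.27 in Pool 2 against Pool 1 and from 0.17 to 0.33 in Control against Vehicle. Members past the threshold ran from 0 to 42 lower and 0 to 1 higher in Pool 1 against Control, 0 to 25 higher in Pool 2 against Pool 1 and 0 to 44 higher in Control against Vehicle. With all libraries the medians kept their direction under each setting tried. The 1 member higher in Pool 1 than Control became 0 with DESeq2, with either filter on low counts, with only the groups compared, with the replicate block, with 18 libraries, and with the correction for GC content and length in a replicate block. The 1 member higher in Pool 2 than Pool 1 became 0 with DESeq2, DESeq2 size factors, upper-quartile factors, filterByExpr, only the groups compared, 18 libraries and the GC content and length correction with or without the replicate block. The 10 members lower in Pool 1 than Control became 5 with upper-quartile factors (6.02%, against 1.68% of all genes in that fit). They became 1 with the GC content and length correction (1.2%, against 1.25%) and 2 with that and the replicate block (2.41%, against 1.05%). The 20 higher in Control than Vehicle became 3 with either of the last 2 (3.61%, against 1.03% and 0.818%), and the cause was not tested. With DESeq2 the counts were 12 lower (14.5%, against 1.59%) and 24 higher (28.9%, against 1.37%). They were 14 (against 2.3%) and 17 (against 1.7%) with 18 libraries, and 13 (against 2.05%) and 24 (against 1.74%) with the default estimate of the spread. Replicate numbers did not pair the libraries (correlations of -0.5 to 0.46, and 4 of 20 libraries most like one of their own number), and the replicate block changed no other count past the threshold by over 1.5 times. Rpl9 in Control against Vehicle, at 0.00, took the opposite sign at 0.00 with DESeq2, DESeq2 size factors and scaling without ribosomal protein and mitochondrial genes, at 0.02 with filterByExpr and the length correction, at 0.01 with only the groups compared and the replicate block, at 0.03 with both, and between -0.07 and 0.08 without single libraries. In Pool 2 against Pool 1, Rpl36al turned from -0.15 to 0.06 with 18 libraries and ran from -0.47 to 0.34 without single libraries, and Rpl24 from -0.27 to 0.11. Depth limits Rpl24, Rpl3l, Rpl36al and Rpl39l most, with at most 18 counts per library, and then Rps10, with 37 to 80.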
